A study of Homo sapiens with 54 samples.

Results

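The long arm of human chromosome 20, 20q, was followed in 18 lists of accessible chromatin from cancer cells that had survived cisplatin. Its members are all peaks on chromosome 20 from position 30400001 (GRCh38) onward, and they number 47931 of 2174526 peaks in all lists together. The arm was chosen for a rise in PC3 cells 10 days after the drug, so its share of accessible length in PC3 day 10 cells against PC3 control cells is the reason for its choice and is described here without a test. The same holds for PC3 day 1 cells against control cells, which use the same control lists, and for PC3 day 10 against day 1 cells. In each list the last peak below the threshold started between 28602397 and 30397179, and the first peak above it between 30421026 and 30579922.

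Accessible chromatin was mapped by ATAC-seq, in which a transposase cuts and tags DNA that is not packed away in nucleosomes. PC3 is a prostate cancer line from a bone metastasis, and MDA-MB-231 is a triple-negative breast cancer line. In each line, untreated control cells were set beside cells that had survived exposure to cisplatin, a DNA-crosslinking platinum compound, and were taken 1 day or 10 days after the drug was removed. The 6 groups had 3 biological replicates each, and every replicate was split into 3 experimental replicates before tagmentation, which gave 54 sequenced samples and 18 deposited lists (n = 3 lists per group). Both lines are single established lines, the survivors are what remained of a treated culture, and neither dose nor length of treatment is given in the sources used here. The lists held from 82392 to 165535 peaks and from 54.362 to 82.2986 Mb of covered length. They hold no read counts, so their depth is unknown and a difference between lists includes any difference in depth. A peak lay at an end of KRT8, KRT18 and EPCAM in all 18 lists, at GATA3 in the 9 MDA-MB-231 lists and no PC3 list, and at KLK3 in the 9 PC3 lists and no MDA-MB-231 list. A peak there is not read as expression. In MDA-MB-231 control replicate 1 peaks were narrower, with a median width of 365 bp against 592 and 587 bp in the other control lists. Without this list the counts given below for MDA-MB-231 become 5 windows and 93 genes at day 10. For day 1 they become 4 windows and 80 genes. Replicate 1 also had the narrowest peaks in every group of survivors. Its median in MDA-MB-231 was 350 bp for day 1 (other lists 522 and 459 bp) and 333 bp for day 10 (422 and 401 bp). The PC3 median was 346 bp for day 1 (541 and 455 bp) and 320 bp for day 10 (421 and 480 bp). Replicate 1 of PC3 control, with 435 bp, lay between the other control lists (455 and 429 bp). In PC3 the narrower peaks of replicate 1 were thus seen in survivors only. The blood cell gene PTPRC and the endothelial gene PECAM1 had no peak at a gene end in any list. The endothelial gene CDH5 had one in 2 of 3 PC3 day 10 lists and in no other list, and the blood cell gene CD3E in all 18 lists.

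Gain of 20q is one of the common chromosome changes of carcinomas, and 20q13, its outer part, is amplified in a subset of breast tumours. The arm carries genes of mitosis such as AURKA and TPX2, the topoisomerase TOP1, the apoptosis inhibitor BCL2L1, and the amplified regulators ZNF217 and NCOA3. It also carries clusters of secreted defence proteins (beta-defensins, the BPIF family and the WFDC protease inhibitors) and large adhesion and channel genes such as PTPRT and CDH4, which are mostly used in nervous tissue. Open chromatin at a promoter or enhancer marks a place where regulatory proteins can bind, and its presence does not show that the gene is transcribed. In bulk libraries a larger share of cells open at a site and a more open site in each cell cannot be told apart.

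Promoters on 20q mostly had a peak, or had none, alike in every group. Of 251 promoters, 9 changed state fully in at least 1 comparison, counting a promoter as gained when all 3 lists of survivors and no control list had a peak on it. The neighbouring promoters of RBL1, MROH8, RPN2, GHRH and MANBAL had no peak in any list. Whether such promoters are closed or lie where no peaks were called was not tested. The promoters of 4 of these genes are shown because they changed in different ways, as the 250 bases before the gene start on the gene's own strand, from RefSeq on GRCh38.p14. Capitals mark matches on either strand to 4 motifs. The AP-1 motif was searched as TGANTCA. The GC box was searched as GGGCGG. The CCAAT box was searched by the letters of its name, and the TATA box as TATAAA. Of 15811 promoters of the same length in the genome, 5.05% hold the AP-1 letters, 55.98% the GC box, 34.4% the CCAAT box and 9.25% the TATA box. On 20q the shares are 2.79%, 56.6%, 29.5% and 7.57%. The first sequence, at chr20:50636794-50637043 on the minus strand, lies before RIPOR3. The second, at chr20:33007454-33007703 on the plus strand, lies before BPIFB2, a secreted protein of the BPI fold family. The third, at chr20:31257414-31257663 on the plus strand, lies before DEFB115, a beta-defensin. The last, at chr20:64056722-64056971 on the plus strand, lies before TCEA2, a tissue-restricted relative of the transcription elongation factor TFIIS. The genes named for their promoters were chosen after their values were seen.
RIPOR3: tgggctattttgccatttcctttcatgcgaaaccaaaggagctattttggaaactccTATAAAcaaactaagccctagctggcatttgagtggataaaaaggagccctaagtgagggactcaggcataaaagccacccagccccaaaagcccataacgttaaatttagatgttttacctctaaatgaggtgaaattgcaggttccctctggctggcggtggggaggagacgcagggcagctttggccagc
BPIFB2: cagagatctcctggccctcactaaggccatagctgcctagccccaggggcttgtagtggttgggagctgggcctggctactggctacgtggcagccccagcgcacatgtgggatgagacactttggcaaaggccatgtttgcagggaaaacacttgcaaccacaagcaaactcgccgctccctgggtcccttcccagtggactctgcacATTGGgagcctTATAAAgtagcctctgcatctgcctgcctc
DEFB115: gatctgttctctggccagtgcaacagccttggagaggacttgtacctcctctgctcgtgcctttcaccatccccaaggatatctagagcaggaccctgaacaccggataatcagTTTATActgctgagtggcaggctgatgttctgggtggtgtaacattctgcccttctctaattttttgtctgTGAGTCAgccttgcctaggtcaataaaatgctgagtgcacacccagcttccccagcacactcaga
TCEA2: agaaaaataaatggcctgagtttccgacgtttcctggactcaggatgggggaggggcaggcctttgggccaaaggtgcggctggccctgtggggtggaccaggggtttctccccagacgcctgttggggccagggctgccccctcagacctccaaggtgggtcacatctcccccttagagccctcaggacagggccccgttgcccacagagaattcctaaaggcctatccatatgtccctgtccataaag

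RIPOR3 had a promoter peak in 3 of 3 PC3 lists at day 1 and at day 10, against 0 of 3 PC3 control lists, and in all 9 MDA-MB-231 lists. Its promoter holds 1 TATA box match and has 47.6% G or C, below the 20q median of 65.2%. BPIFB2 had a promoter peak in 3 of 3 PC3 day 10 lists and in none of the other 15 lists. DEFB115 had one in 3 of 3 MDA-MB-231 lists at day 10 and 2 of 3 at day 1, against 0 of 3 control lists, and in no PC3 list. Its promoter is the 1 of these 4 with the AP-1 letters. TCEA2 went the other way, with a promoter peak in 0 of 3 MDA-MB-231 lists on either day, against 3 of 3 control lists, and in no PC3 list. A match to a motif is a description of letters and not evidence that a factor bound there.

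Across the arm, PC3 day 10 cells gained 4 of 251 promoters (DEFB123, BPIFB2, BPIFB4 and RIPOR3), against 0.601% over all promoters, and lost 2 (AHCY, which recycles S-adenosylhomocysteine, and the transcription factor gene ZBTB46), against 0.961% over all. PC3 day 1 cells gained RIPOR3 and LIME1, a lymphocyte adaptor gene, and lost none, where 0.405% of all promoters were gained and 0.12% lost. MDA-MB-231 day 10 cells gained DEFB115 and lost TCEA2 (0.569% gained and 0.335% lost over all promoters). MDA-MB-231 day 1 cells gained none and lost TCEA2 (0.569% and 0.108%). In any list, from 159 to 173 of the 251 promoters had a peak.

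In PC3 cells the arm took up more of the accessible length in survivors. Its share of the covered length was 2.341%, 2.180% and 2.197% in the control lists, 2.390%, 2.469% and 2.422% at day 1, and 2.475%, 2.435% and 2.833% at day 10. Neither group of survivors overlapped with control, and the third day 10 list stood above the other 2. The mean was 2.58% ± 0.219 at day 10 and 2.43% ± 0.0396 at day 1, against 2.24% ± 0.0883 in control cells (SD, n = 3 each), ratios to control of 1.15 and 1.08. Leaving out 1 list at a time, the day 10 difference ranged from 0.216 to 0.414 percentage points and the day 1 difference from 0.158 to 0.238. The number of peaks moved with it, at 3246 ± 248 at day 10 and 2796 ± 523 at day 1, against 2131 ± 112 in control cells, while the lists as a whole also held more peaks (150115 and 138253, against 111646).

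In MDA-MB-231 cells, which had no part in the choice of the arm, the share overlapped between all 3 states. It was 2.959%, 3.074% and 3.196% in the control lists, 2.924%, 3.085% and 3.082% at day 1, and 3.129%, 3.160% and 2.879% at day 10. The difference from control was -0.0205 percentage points at day 10 (exact permutation p = 0.9, two-sided) and -0.0462 at day 1 (exact permutation p = 0.7). Day 10 and day 1 differed by 0.0257 points (exact permutation p = 0.7), and the smallest p that 3 against 3 lists can give is 0.1. The 2 differences from control, and the one between the days, change sign without single lists, and run from -0.0794 to 0.0680, from -0.105 to 0.0138 and from -0.0277 to 0.114. On the 50000 peaks of highest area in each list the sign turned, with a difference from control of 0.123 points at day 10 (exact permutation p = 0.3, two-sided) and 0.177 points at day 1 (exact permutation p = 0.2). The arm held more peaks in survivors, 2822 ± 268 at day 10 and 2825 ± 404 at day 1 against 2158 ± 218 in control cells (exact permutation p = 0.1 for both, two-sided, the smallest possible), in step with the list totals (117149 and 118115, against 89564).

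**Figure D1:**
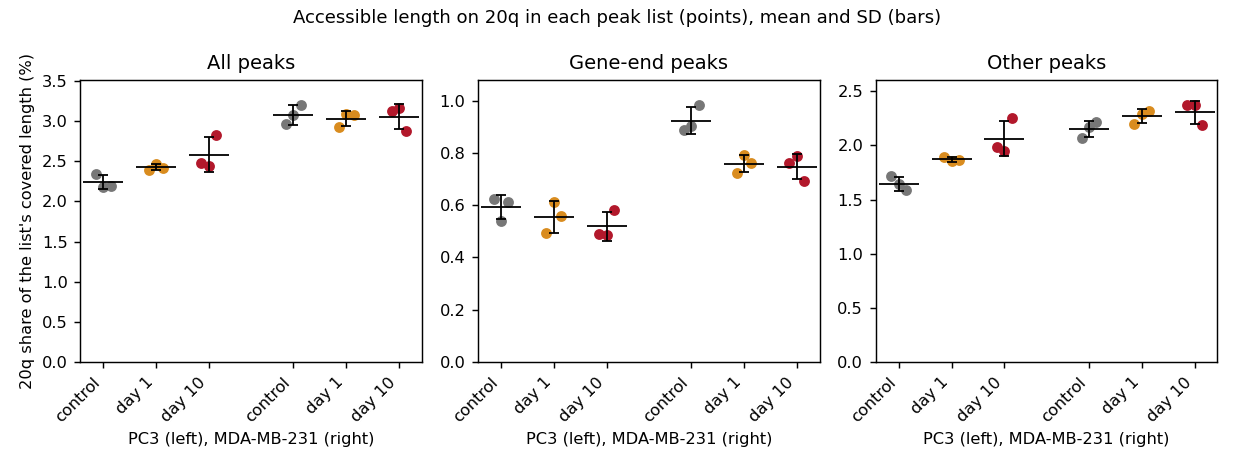
Share of each list's covered length that lies on 20q, in percent, for all peaks, gene-end peaks and other peaks, with PC3 on the left and MDA-MB-231 on the right of each panel. Points are lists, horizontal bars are means and whiskers are SD (n = 3). In PC3 the day 10 lists (2.435% to 2.833%) lie above the control lists (2.180% to 2.341%), while the MDA-MB-231 groups overlap for all peaks.

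The lines differed in the level itself. At day 1, whose lists the choice of the arm did not use, 20q held 2.43% of the covered length in PC3 cells and 3.03% in MDA-MB-231 cells, a difference of -0.603 percentage points (exact permutation p = 0.1, two-sided, the smallest possible), with every PC3 list below every MDA-MB-231 list. The means were 2.58% in PC3 and 3.06% in MDA-MB-231 at day 10, and 2.24% and 3.08% in control cells. PC3 lists lay below MDA-MB-231 lists at these times too.

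Set beside the other chromosome arms, 20q had the highest ratio of survivors to control in PC3 at day 1 and the second highest at day 10, out of 41 arms. The short arm of chromosome 18 came before it at day 10, with a ratio of 1.23. Arms whose lists lay wholly above control made up 9.76% (day 1) and 22% (day 10) of the 41 in PC3. The arm was chosen on the day 10 contrast, and day 1 uses the same control lists, so nothing is read from its PC3 ranks. In MDA-MB-231 the rank of 20q was 27 at both times. The rest of chromosome 20, below the threshold, had 1.36% of the covered length in PC3 day 10 lists and 1.34% in day 1 lists, against 1.26% in control lists. In MDA-MB-231 it had 1.02% at day 10 and 1.00% at day 1, against 0.918% in control cells (exact permutation p = 0.1 for both, two-sided, the smallest possible). There the part below the threshold was higher while the arm was not.

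**Figure D2:**
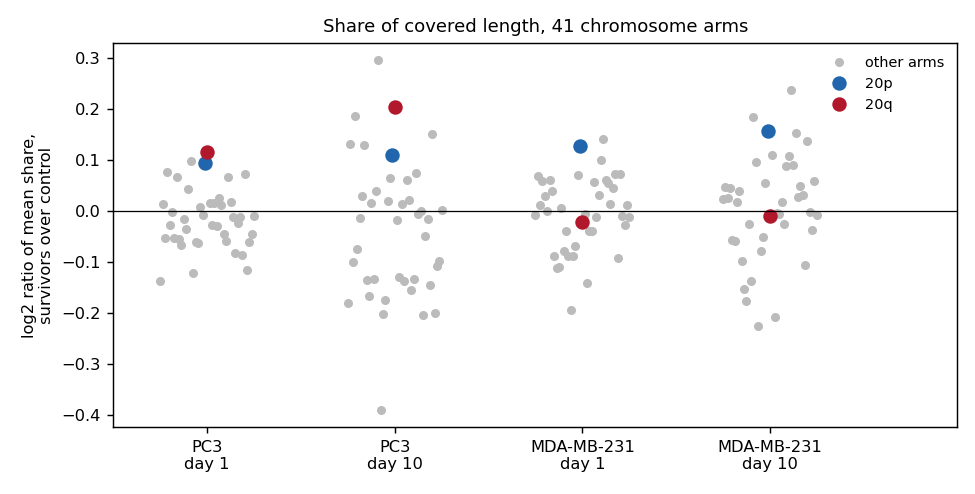
Log2 ratio of the mean share of covered length in survivors over control for 41 chromosome arms (points), by line and time, with 20q in red and the rest of chromosome 20 in blue. In PC3 20q lies at the top at day 1 and second at day 10, and in MDA-MB-231 it lies at rank 27 both times. The PC3 ranks use the contrast the arm was chosen on, or its control lists, and nothing is read from them.

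Splitting the arm by position showed where the length lay. Peaks no more than 1 kb away from a start or an end of a protein-coding gene are called gene-end peaks, and the rest other peaks. The gene-end share of MDA-MB-231 was 0.748% at day 10 and 0.760% at day 1, against 0.924% in control cells (exact permutation p = 0.1 for both, two-sided, the smallest possible), with no overlap between survivors and control. The other peaks had 2.31% at day 10 and 2.27% at day 1, against 2.15% in control cells (exact permutation p = 0.2 for both), where the lists overlapped. In order of replicate number they had 2.200%, 2.293% and 2.319% at day 1, against 2.070%, 2.172% and 2.214% in control lists. Each day 1 list was thus above the control list of its number, which the test does not use. In PC3 the gene-end share was 0.519% at day 10 and 0.555% at day 1, against 0.593% in control cells, and the groups overlapped. The other peaks of PC3 had 2.06% at day 10 and 1.87% at day 1, against 1.65% in control cells, with every list of survivors above every control list.

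The part of the arm's length at gene ends followed that of the whole list. It was 24.5% at day 10 and 25.1% at day 1, against 30.0% in control cells of MDA-MB-231, where the whole lists had 27.5% and 27.2%, against 32.5%. In PC3 it was 20.1% and 22.8%, against 26.5%, where the whole lists had 19.5% and 22.1%, against 25.0%. Counted against each class's own total, 20q held 2.66% of all gene-end length in PC3 day 10 lists and 2.51% in day 1 lists, against 2.37% in control lists, so that its sign in PC3 turns with the total used. Of all other length it held 2.56% and 2.40%, against 2.20%. In MDA-MB-231 all these groups overlapped (exact permutation p from 0.4 to 0.9). The median width of the arm's gene-end peaks was 1075 bp at day 10 and 1104 bp at day 1, against 1491 bp in MDA-MB-231 control lists, and the lists overlapped (exact permutation p = 0.3 for both, two-sided). In PC3 it was 817 bp at day 10, below every control list, and 1040 bp at day 1, overlapping with control, against 1131 bp in control lists.

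The arm was cut into 17 windows of 2 Mb, and covered length, scaled to the mean list total, was fitted over 1395 windows of the genome. In PC3 the survivors were above control in 16 of 17 windows at both times. Every list of survivors lay above every control list in 12 windows at day 10 and 10 at day 1, where 22.5% and 15.7% of all windows did so. The window from 40.4 Mb, with TOP1 and the last part of PTPRT, had 0.0947%, 0.0945% and 0.113% of the covered length in PC3 day 10 lists, against 0.0640%, 0.0591% and 0.0601% in control lists. At day 1 the same window had 0.0653%, 0.0668% and 0.0706%, close above control. The window from 38.4 Mb, with PPP1R16B and DHX35, had 0.0853%, 0.0814% and 0.101% at day 10, against 0.0581%, 0.0526% and 0.0591% in control lists. On the log2 scale these windows were higher by 0.70 (SE 0.06) and 0.64 (SE 0.07) at day 10. The innermost window was 0.48 higher at day 10 and 0.29 at day 1 (SE 0.07 for both), and the 2 windows with the largest differences in share, the innermost and that from 40.4 Mb, made up 24.0% of the arm's day 10 difference.

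By limma, 9 PC3 windows were called higher at day 10 and none lower, where 20.1% and 25.6% of all windows were, and 1 was higher at day 1 (2.8% and 1.51%). These calls use the contrast the arm was chosen on, or its control lists, and nothing is read from them. PC3 day 10 against day 1 gave 3 higher windows, from 38.4, 40.4 and 52.4 Mb (8.67% of all windows higher and 8.03% lower), and 5 with the replicate number as a block.

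In MDA-MB-231 the windows moved in both directions. At day 10, 5 windows rose (33.9% of all windows) and 2 fell (13.2%), and at day 1, 3 rose (23.9%) and 1 fell (7.24%), by limma at an adjusted p under 0.05. Without scaling to the list total these counts were 3 and 0 at day 10 and 4 and 0 at day 1. They were 3 and 2 at day 10 under median-of-ratios scaling, with 2 and 1 at day 1, and on the 50000 peaks of highest area 4 and 0 at day 10 and 2 and 0 at day 1. The window from 54.4 Mb, which holds 6 protein-coding genes, rose by 0.46 on the log2 scale at day 10 (SE 0.09, limma adjusted p = 0.000231) and by 0.49 at day 1 (SE 0.09, limma adjusted p = 0.000235). It had 0.0229%, 0.0230% and 0.0240% of the covered length at day 10, against 0.0194%, 0.0153% and 0.0154% in control lists. The windows from 56.4 and 58.4 Mb, with BMP7 and PHACTR3, also rose at both times, by 0.24 and 0.37 at day 10 (limma adjusted p = 0.000947 and 0.000228) and by 0.23 and 0.34 at day 1 (limma adjusted p = 0.00238 and 0.00107). The windows from 40.4 and 46.4 Mb rose at day 10, by 0.32 and 0.14 (limma adjusted p = 0.000171 and 0.0239). Day 10 and day 1 differed in 0 windows (3.15% of all windows higher and 0.86% lower), in 1 window at an unadjusted p under 0.05, and in 1 with the replicate number as a block.

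The outermost window, from 62.4 Mb to the last peak, holds 52 protein-coding genes, the second most of the 17, and fell in MDA-MB-231. It had 0.594%, 0.529% and 0.439% of the covered length at day 10 and 0.481%, 0.481% and 0.487% at day 1, against 0.599%, 0.618% and 0.688% in control lists. The fall was 0.39 on the log2 scale at day 1 (SE 0.12, limma adjusted p = 0.0171), and at day 10 the change was -0.29 (SE 0.12, limma adjusted p = 0.0482). It was called neither without scaling nor on the 50000 peaks of highest area, at either time. In PC3 the same window overlapped between groups, at 0.262%, 0.212% and 0.297% at day 10 and 0.270%, 0.284% and 0.265% at day 1, against 0.295%, 0.220% and 0.230% in control lists. Over the 17 windows, the log2 change and the number of protein-coding genes had a Spearman rho of -0.535 at day 10 in MDA-MB-231, where it was -0.258 at day 1, and of -0.339 at day 10 and 0.254 at day 1 in PC3. These are descriptions over neighbouring windows of the same lists.

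**Figure D3:**
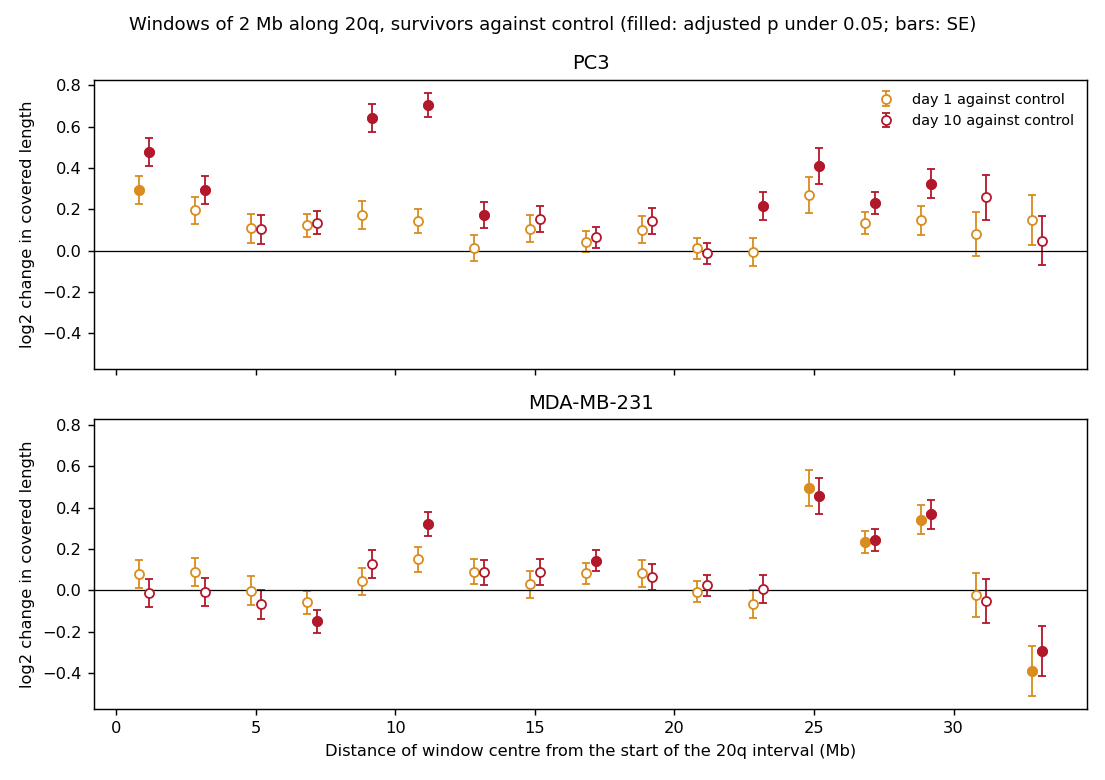
Log2 change in covered length of survivors against control in the 17 windows of 2 Mb along 20q, by distance from the start of the interval in Mb, for PC3 above and MDA-MB-231 below. Points are limma estimates, bars are SE, and filled points have an adjusted p under 0.05. In PC3 the windows 8 to 12 Mb from the start lie furthest above 0 at day 10 (0.64 and 0.70), and in MDA-MB-231 the last window is below 0 at both times (-0.39 and -0.29).

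By class, gene-end length of MDA-MB-231 was lower in 7 of 16 windows at day 10 and higher in 0 (39.1% and 0.304% of all windows with gene-end length), and lower in 6 and higher in 1, from 56.4 Mb, at day 1 (66.3% and 0.203%). Other length was higher in 7 of 17 windows at day 10 and lower in 0 (44.1% and 6.17%), and higher in 7 and lower in 1 at day 1 (39.2% and 1.65%). PC3 had 6 lower gene-end windows at day 10 and 3 at day 1 (84.6% and 48.5%) and none higher (0.406% and 0.203%), with 14 and 6 higher windows of other length (28.1% and 6.82%) and none lower (11% and 0.431%). These PC3 calls use the contrast the arm was chosen on, or its control lists, and nothing is read from them. PC3 day 10 against day 1 had 0 gene-end windows higher or lower (0% and 36.6%), 4 of other length higher and 0 lower (9.33% and 2.23%), and MDA-MB-231 had 0 of other length in either direction (2.87% and 1.15%) and 0 of gene-end length. Between the lines at day 1, PC3 was lower than MDA-MB-231 in 13 windows and higher in 2 (37.1% and 44.4%), and lower in 5 without scaling and in 9 on the 50000 peaks of highest area, with 2 higher in both. The higher ones start at 46.4 and 54.4 Mb, and the second was higher by 1.11 on the log2 scale (SE 0.09, limma adjusted p = 1.62e-10). The window from 60.4 Mb, with CDH4, had the largest difference downward, -1.27 (SE 0.11, limma adjusted p = 5.7e-10). In gene-end length PC3 was lower in 12 windows and higher in 0 (55.8% and 11%), and in other length lower in 11 and higher in 2 (32.7% and 46.8%).

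Peaks were merged into regions within each line, and a region present in all 3 lists of survivors and in no control list counted as gained, and the reverse as lost. These counts have no test. Of 3955 regions on 20q in PC3, 551 were gained at day 10 (13.9%, against 10.4% over all regions) and 20 lost (0.506%, against 1.33%). At day 1, 198 were gained (5.01%, against 4.28%) and 6 lost (0.152%, against 0.407%). Without PC3 day 1 replicate 2 the day 1 gains were 391, and without day 1 replicate 1 the losses were 16. Of 3476 regions in MDA-MB-231, 335 were gained at day 10 (9.64%, against 10%) and 33 lost (0.949%, against 0.909%), and 295 were gained at day 1 (8.49%, against 7.86%) and 36 lost (1.04%, against 0.684%). Without control replicate 1 the losses of MDA-MB-231 were 54 at day 10 and 57 at day 1, and the gains 419 and 371. The shares of MDA-MB-231 are near the background, and those of PC3 at day 10 belong to the contrast that chose the arm. Of the gained regions, 148 in PC3 and 157 in MDA-MB-231 were gained at both times. Gained regions lay mostly away from gene ends: 5.81% of those of PC3 at day 10 and 4.78% of those of MDA-MB-231 touched one, while 11.0% and 12.2% of all 20q regions did. Of all regions gained in the genome at day 10, 4.23% and 3.13% touched one, so this is not particular to the arm.

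Gains were uneven along the arm. In PC3 at day 10 they made up 29.3% of the regions in the window from 40.4 Mb (49 of 167) and 27.5% in the window from 38.4 Mb (44 of 160), and 6.59% in the outermost window (23 of 349). In MDA-MB-231 the window from 40.4 Mb also had the highest share at day 10, 18.2% (22 of 121), while at day 1 it was the window from 58.4 Mb with 16.9% (28 of 166). The outermost window held 14 of the 36 regions lost at day 1 and 8 of the 33 lost at day 10.

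**Figure D4:**
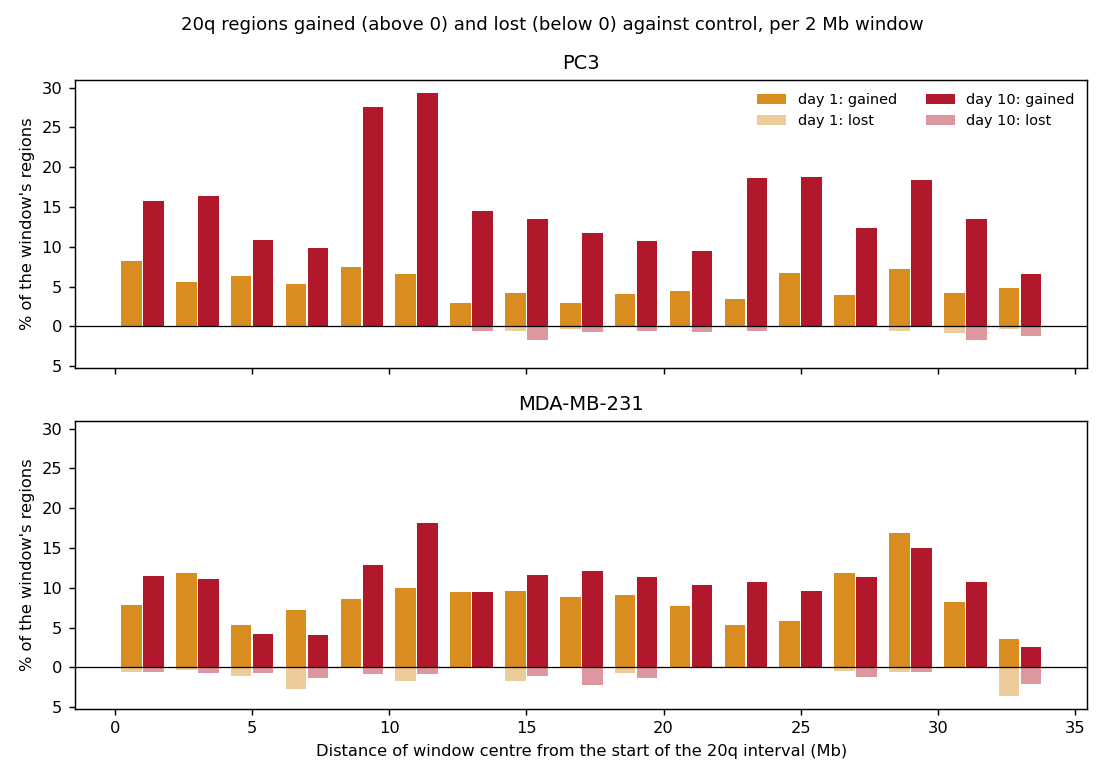
Share of each 2 Mb window's regions, in percent, that were gained (above 0) or lost (below 0, pale) in survivors against control, by distance from the start of the interval in Mb, for PC3 above and MDA-MB-231 below. In PC3 the windows from 38.4 and 40.4 Mb reach 27.5% and 29.3% at day 10, and in MDA-MB-231 the last window holds 14 of the 36 losses at day 1.

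The widest regions gained in PC3 at day 10 lay inside NOL4L (chr20:32449240-32452430, 3191 bp) and SLC17A9, a vesicular nucleotide transporter (chr20:62955520-62958248, 2729 bp), at an end of PABPC1L (chr20:44937846-44940474, 2629 bp), and inside PIGU, a subunit of the GPI transamidase (chr20:34581465-34583920, 2456 bp), and LAMA5, a laminin chain (chr20:62323636-62325998, 2363 bp). The first 4 were also gained at day 1. Each width is that of a region merged over all lists of a line, and regions were ranked by it. It is therefore not the length gained. The widest lost ones were narrower, and included a region inside MMP9, a gelatinase (chr20:46011599-46012140, 542 bp), and one at ZBTB46 (chr20:63830978-63831635, 658 bp). The region at ZBTB46 spans the promoter of that gene, given above as lost, so both describe the same loss. In MDA-MB-231 the widest gained region at both times lay between genes at chr20:30501109-30504564 (3456 bp), followed at day 10 by regions inside JPH2 (chr20:44165320-44167102, 1783 bp), at an end of TOMM34 (chr20:44940579-44942072, 1494 bp), inside TPD52L2 (chr20:63889059-63890434, 1376 bp) and at an end of SDC4 (chr20:45323573-45324934, 1362 bp). The widest lost region at both times lay at an end of PPDPF (chr20:63522133-63525397, 3265 bp). Others lay inside NKAIN4 (chr20:63251965-63253497, 1533 bp) and at an end of GATA5 (chr20:62463772-62465040, 1269 bp). In the day 10 lists of MDA-MB-231, peaks covered only a small part of the gained region inside TPD52L2. They covered most of the one inside JPH2.

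Of 4712 regions merged over both lines, 52.7% were seen in both, 27.5% in PC3 alone and 19.8% in MDA-MB-231 alone. At day 10, 77 were gained in both lines, which is 14.4% of the 536 gained in PC3 and 23.3% of the 330 gained in MDA-MB-231, where over all regions the shares were 13.4% and 17.7%. At day 1, 31 were gained in both, 16.6% of 187 in PC3 and 10.7% of 290 in MDA-MB-231 (12.5% and 8.64% over all regions). The day 10 set includes a region inside PTPRT (chr20:42605053-42606012, 960 bp) and one inside BMP7 (chr20:57223593-57224538, 946 bp).

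Gene by gene, covered length was summed over the gene and 10 kb on each side, and 336 of the 357 protein-coding genes of the arm passed the filter for length among 16812 in the genome. Neighbouring genes share peaks within those 10 kb, so their values are not independent. In MDA-MB-231, 54 genes were higher at day 10 and 57 lower (11% and 16.7% of all genes tested), and 51 higher and 43 lower at day 1 (10.9% and 15.5%). The split turned with the scaling. Median-of-ratios scaling gave 71 higher and 17 lower at day 10 and 61 and 27 at day 1, and no scaling gave 39 and 23 at day 10 and 53 and 15 at day 1. In PC3, 92 were higher and 41 lower at day 10 (11.8% and 33.1%), and 58 and 10 at day 1 (6.03% and 7.24%), from which nothing is read because the contrast or its control lists chose the arm. Median-of-ratios scaling gave 140 and 7 at day 10 and 69 and 4 at day 1, and no scaling gave 118 and 2 at day 10 and 92 and 0 at day 1. The median log2 change over all genes was -0.16 in PC3 at day 10, -0.07 at day 1, and -0.11 and -0.09 in MDA-MB-231, and median-of-ratios scaling moved these to within 0.01 of 0. The median over 20q genes was 0.10 and 0.06 in PC3 and -0.07 and -0.02 in MDA-MB-231.

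Of the adhesion, neuronal and channel genes, 6 of 13 tested members rose at day 10 in MDA-MB-231 and 5 did so at day 1, where 11% and 10.9% of all genes rose, and none fell under any of the scalings tried. The counts were 3 and 2 when each list was cut to its 50000 peaks of highest area. The list's median log2 change was 0.29 at day 10 and 0.27 at day 1, against -0.07 and -0.02 over all 20q genes. In PC3, 5 members were higher and OPRL1, an opioid-related receptor, was lower at day 10, and 5 were higher at day 1, from which nothing is read. OPRL1 overlapped between groups and was not called under any other scaling.

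PTPRT, a receptor-type tyrosine phosphatase gene of over 1 Mb (chr20:42031890-43189906), showed the largest change of the arm in PC3. Its covered length was 1.20, 0.438 and 0 kb in the control lists, 1.73, 1.19 and 1.20 kb at day 1, and 10.9, 6.15 and 13.9 kb at day 10. Day 10 stood far above the other states, and the difference of day 10 from control was 3.47 on the log2(length + 500 bp) scale (SE 0.32). In MDA-MB-231 it had 0.530, 0.426 and 0.387 kb in control lists, 1.70, 1.92 and 2.65 kb at day 1, and 3.10, 2.91 and 3.43 kb at day 10. There the lists of the 3 states did not overlap, and the rise was 1.95 at day 10 (SE 0.32, limma adjusted p = 0.000262) and 1.44 at day 1 (SE 0.32, limma adjusted p = 0.00399). Among the 50000 peaks of highest area per list both were 0.00.

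No list of either line had a peak on the promoter used for CDH4, which encodes R-cadherin (chr20:61252261-61940617), so its covered length lay elsewhere. The gene had little covered length in untreated PC3 cells, and at day 1 far less in PC3 than in MDA-MB-231 cells. In PC3 it had 1.74, 0.318 and 0.360 kb in control lists, 4.22, 2.35 and 3.32 kb at day 1, and 7.51, 3.49 and 8.52 kb at day 10, a difference from control of 2.51 at day 10 and 1.68 at day 1 (SE 0.32 for both). At day 1 PC3 had 3.30 ± 0.934 kb and MDA-MB-231 27.6 ± 0.663 kb, and the log2 difference of -2.92 (SE 0.32, limma adjusted p = 4.74e-07) was the largest fall of the arm between the lines among genes whose lists did not overlap. CHRNA4, a nicotinic acetylcholine receptor subunit, had 2.94, 1.84 and 3.56 kb in PC3 day 10 lists, against 1.23, 0 and 0 kb in control lists. CDH22, another cadherin gene, had 14.2 ± 3.63 kb at day 10, against 8.12 ± 1.62 kb in PC3 control cells.

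PHACTR3, a regulator of protein phosphatase and actin (chr20:59577509-59847711), rose in the other line. In MDA-MB-231 it had 2.34, 1.57 and 2.23 kb in control lists, 8.99, 7.02 and 10.1 kb at day 1, and 11.0, 8.54 and 8.40 kb at day 10. It rose by 1.95 at day 10 (SE 0.16, limma adjusted p = 2.14e-07) and by 1.85 at day 1 (SE 0.16, limma adjusted p = 9.88e-07), and was called under all scalings tried. In PC3 it was already at 12.1, 12.1 and 9.81 kb in control lists, and had 14.3, 11.2 and 17.5 kb at day 10, which overlapped with control. The potassium channel gene KCNG1 rose at both times in MDA-MB-231 (0.95 at day 1, limma adjusted p = 0.000925) and was not called on the 50000 peaks of highest area. The cadherin-like gene CDH26 rose by 0.88 at day 10 (limma adjusted p = 0.000555).

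**Figure D5:**
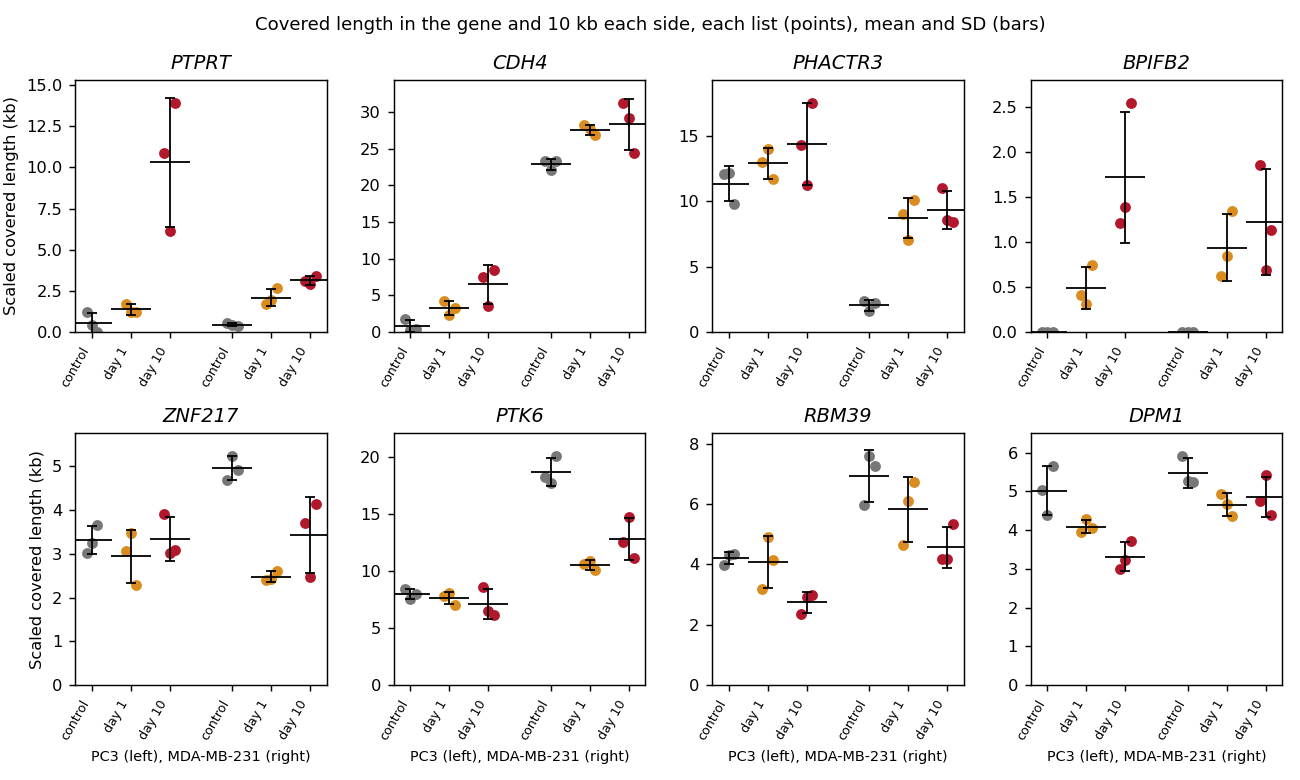
Covered length in kb, scaled to the mean list total, in the body and 10 kb each side of 8 genes of 20q, with PC3 on the left and MDA-MB-231 on the right of each panel. Points are lists, horizontal bars are means and whiskers are SD (n = 3). PTPRT stands at 6.15 to 13.9 kb in PC3 day 10 lists and at most 1.73 kb in the other PC3 lists, while PHACTR3 is above control in MDA-MB-231 alone without overlap.

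Among the secreted and matrix genes, 3 of 15 tested members rose and 3 fell in MDA-MB-231 at day 10, and 4 rose and none fell at day 1. Of all genes, 11% rose and 16.7% fell at day 10, and 10.9% rose and 15.5% fell at day 1. With median-of-ratios scaling the day 10 counts were 5 and 0. BMP7, a bone morphogenetic protein, had 6.55, 6.72 and 4.36 kb at day 10 and 5.25, 4.02 and 4.94 kb at day 1, against 1.54, 1.38 and 2.22 kb in control lists, and rose by 1.52 and 1.25 (SE 0.17, limma adjusted p = 3.47e-06 and 5.48e-05). The protease inhibitor genes PI3 and SLPI rose as well. PI3, which encodes elafin, had 1.34, 2.17 and 2.28 kb at day 10, against 0, 0 and 0.454 kb in control lists, and SLPI had 1.48, 1.19 and 1.26 kb, against 0.297, 0.309 and 0 kb. SPINT3, a Kunitz-type inhibitor gene, had 1.12 ± 0.241 kb at day 10 and was listed at 0 in all control lists. In PC3, PI3 and SLPI had covered length in control cells already, with 4.01 to 4.28 kb for PI3 and 1.99 to 2.35 kb for SLPI.

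In PC3 the secreted and matrix list had 3 members higher and 2 lower at day 10 (11.8% and 33.1% of all genes), from which nothing is read. TGM2, the tissue transglutaminase, had 19.6, 16.7 and 19.9 kb at day 10 and 19.4, 19.4 and 17.8 kb at day 1, against 13.7, 13.2 and 13.1 kb in control lists, and the groups did not overlap. In MDA-MB-231 TGM2 was lower at day 10, at 16.2, 16.3 and 14.7 kb, against 20.9, 18.4 and 17.7 kb in control lists, a call that median-of-ratios scaling did not keep. PROCR, the endothelial protein C receptor, had 4.26 ± 0.248 kb in PC3 day 10 lists, against 5.77 ± 0.153 kb in control lists.

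BPIFB2, of the BPI fold cluster near 33 Mb, was listed at 0 in all 6 control lists, and had 1.22, 1.39 and 2.55 kb in PC3 day 10 lists and 1.85, 0.686 and 1.13 kb in MDA-MB-231 day 10 lists. Its neighbour SUN5, a nuclear envelope gene of spermatids, shares peaks with it within 10 kb and was likewise at 0 in all control lists, with 1.64 ± 0.149 kb in PC3 and 1.98 ± 1.03 kb in MDA-MB-231 at day 10. BPIFB1 had 3.68, 3.05 and 6.29 kb in PC3 day 10 lists, against 1.57, 1.06 and 0.582 kb in control lists. With every control list at 0, BPIFB2 and SUN5 passed the filter for length only through lists of survivors. No p is therefore given for them. Neither gene had enough length to be tested on the 50000 peaks of highest area. CIMIP1, a ciliary microtubule gene, was at 0 in MDA-MB-231 control lists and at 1.03, 1.01 and 1.00 kb at day 1. With these control lists at 0, no p is given for CIMIP1 either.

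Of the survival and kinase genes, 2 of 11 tested members (PREX1 and SDC4) rose in MDA-MB-231 at day 10 and 5 fell, where 11% of all genes rose and 16.7% fell, but with median-of-ratios scaling 3 rose and 2 fell. PTK6, a cytoplasmic tyrosine kinase gene, had 12.6, 14.8 and 11.2 kb at day 10 and 10.7, 10.9 and 10.1 kb at day 1, against 18.3, 17.7 and 20.1 kb in control lists. It fell at both times, by 0.53 and 0.80 on the log2 scale (SE 0.11, limma adjusted p = 0.00178 and 7.89e-05), though not at day 10 on the 50000 peaks of highest area. BIRC7, which encodes the apoptosis inhibitor livin, had 5.60, 4.95 and 3.72 kb at day 10, against 9.60, 9.32 and 10.9 kb in control lists, and fell by 1.00 (SE 0.13, limma adjusted p = 3.41e-05). Its neighbours NKAIN4 and LOC124904950 share peaks with it and fell by 0.87 and 1.13 (limma adjusted p = 0.00585 and 0.00207), and PPDPF, next to PTK6, fell by 0.76 (limma adjusted p = 0.00162). These 3 were not called on the 50000 peaks of highest area. All 5 lie in the outermost window. SOX18, a transcription factor gene of vessel development in the same window, had 7.80 ± 1.04 kb at day 10 and 6.67 ± 0.849 kb at day 1, against 13.6 ± 1.36 kb in control lists (limma adjusted p = 0.000486 and 8.05e-05).

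In PC3 none of the survival and kinase genes was lower at either time. BCL2L1, which encodes the apoptosis inhibitor BCL-XL (chr20:31664452-31723963), had 20.2, 22.8 and 25.4 kb at day 10 and 20.0, 22.6 and 20.6 kb at day 1, against 13.3, 15.9 and 14.6 kb in control lists. Survivors did not overlap with control, and the difference was 0.63 at day 10 and 0.52 at day 1 (SE 0.08 for both). In MDA-MB-231 it started from a longer covered length, 30.0, 31.8 and 29.4 kb in control lists, and had 24.3, 26.6 and 25.2 kb at day 10. PREX1, an exchange factor for Rac, was higher in both lines at day 10, with 17.5 ± 1.13 kb against 14.5 ± 0.641 kb in control lists of PC3 and 24.8 ± 0.865 kb against 19.2 ± 0.403 kb in those of MDA-MB-231 (a rise of 0.36 in MDA-MB-231, limma adjusted p = 0.000445). Neither PREX1 nor SDC4, a syndecan gene, was called at day 10 in MDA-MB-231 without scaling or on the 50000 peaks of highest area.

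Of the 20q13 amplicon genes of breast cancer, 1 of 9 rose and 1 fell in MDA-MB-231 at each time, near the share of all genes (11% and 16.7% at day 10, 10.9% and 15.5% at day 1). ZNF217, the transcriptional repressor gene named as a driver of the amplicon, had 2.41, 2.42 and 2.62 kb at day 1, against 4.69, 5.24 and 4.92 kb in control lists, and fell by 0.87 (SE 0.15, limma adjusted p = 0.000546, called under all scalings tried). At day 10 it had 3.70, 2.47 and 4.13 kb and a change of -0.50 (limma adjusted p = 0.0202), which no other scaling kept. TSHZ2, a teashirt zinc finger gene next to it, rose by 0.99 at day 10 (SE 0.14, limma adjusted p = 6.58e-05), though not on the 50000 peaks of highest area. In PC3, TSHZ2 had 6.72, 5.12 and 5.12 kb at day 10, against 2.89, 2.80 and 1.78 kb in control lists, and BCAS1 had 5.97, 5.62 and 5.62 kb, against 4.09, 4.46 and 2.57 kb. NCOA3, a nuclear receptor coactivator gene, had 6.49 ± 0.173 kb at day 10, against 8.26 ± 0.994 kb in control lists. ZNF217 itself overlapped between PC3 groups, at 3.90, 3.01 and 3.09 kb at day 10, against 3.02, 3.26 and 3.67 kb in control lists.

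Of the mitosis and cell cycle genes, E2F1, MYBL2 and TPX2 fell in MDA-MB-231 at day 10 out of 10 tested, where 16.7% of all genes fell. The falls were 0.27, 0.35 and 0.52 (limma adjusted p = 0.0211, 0.0252 and 0.0329), and none of the 3 was called with median-of-ratios scaling, without scaling or on the 50000 peaks of highest area. At day 1 RAE1, which encodes an mRNA export and spindle protein, rose by 0.42 (limma adjusted p = 0.0415), and was called neither without scaling nor on the 50000 peaks of highest area. In PC3, UBE2C, which encodes the ubiquitin conjugating enzyme of the anaphase promoting complex, had 3.78, 4.61 and 5.22 kb at day 10 and 5.35, 4.84 and 4.90 kb at day 1, against 3.26, 2.81 and 3.77 kb in control lists. AURKA, the mitotic kinase gene, had 2.13, 2.06 and 2.05 kb at day 10, against 3.28, 2.36 and 3.12 kb in control lists. With median-of-ratios scaling the difference of AURKA in PC3 was -0.24, against -0.40 with the list total.

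Of 8 genome maintenance genes tested, 1 rose and none fell in MDA-MB-231 at day 10, and 1 rose and 1 fell at day 1, where 11% and 16.7% of all genes did at day 10 and 10.9% and 15.5% at day 1. TOP1, the topoisomerase that relaxes DNA, had 4.86, 4.59 and 4.11 kb in PC3 day 1 lists, against 6.76, 6.93 and 6.58 kb in control lists, with no overlap, and 5.83, 6.56 and 7.05 kb at day 10. In MDA-MB-231 TOP1 fell at day 1, by 0.43 (SE 0.13, limma adjusted p = 0.0254), with overlapping lists, and was not called with the 2 other scalings. SPO11, the enzyme that cuts DNA in meiosis, rose in MDA-MB-231 by 0.46 at day 10 and 0.32 at day 1 (SE 0.08, limma adjusted p = 0.000499 and 0.00931), though not on the 50000 peaks of highest area. It lies beside RAE1 and its covered length was short, 2.23 ± 0.184 kb at day 10 against 1.48 ± 0.0481 kb in control lists.

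Among transcription factors, HNF4A, a nuclear receptor of liver and gut, rose in MDA-MB-231 by 0.77 at day 10 (SE 0.10, limma adjusted p = 2.22e-05), with 5.86, 5.75 and 5.72 kb, against 2.71, 3.58 and 3.32 kb in control lists. In the list of 15 tested, 1 rose and 2 fell at day 10 (11% and 16.7% of all genes), and 2 rose and 2 fell at day 1 (10.9% and 15.5%). In PC3, 4 were higher and 2 lower at day 10 (11.8% and 33.1% of all genes), and 7 higher and 0 lower with median-of-ratios scaling, from which nothing is read. CEBPB, a bZIP factor gene of stress and inflammation, had 5.43, 5.55 and 5.69 kb in PC3 day 10 lists, against 3.50, 3.58 and 3.88 kb in control lists. SALL4, a zinc finger gene of stem cells, had 1.89, 2.63 and 1.84 kb in PC3 day 1 lists, against 1.30, 1.32 and 1.31 kb in control lists. At day 1 SALL4 had 2.12 ± 0.444 kb in PC3 and 0.414 ± 0.0428 kb in MDA-MB-231, a log2 difference of 1.51 (SE 0.12, limma adjusted p = 8.47e-09).

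The housekeeping genes of the arm were split in PC3 at day 10, with 4 of 14 tested higher and 4 lower (11.8% and 33.1% of all genes), and without scaling 5 were higher and 0 lower. Nothing is read from these counts, because the contrast chose the arm. DPM1, a subunit of the dolichol phosphate mannose synthase, had 3.01, 3.23 and 3.72 kb at day 10, against 5.02, 4.38 and 5.65 kb in control lists, and VAPB, an endoplasmic reticulum contact protein, 2.22, 2.11 and 1.87 kb, against 2.83, 3.24 and 3.34 kb. EIF6, a ribosome assembly factor, was higher there (6.82 ± 1.01 kb against 4.71 ± 0.679 kb), while in MDA-MB-231 it fell by 0.38 at day 10 (limma adjusted p = 0.0182), a call that no other scaling kept. RBM39, a splicing factor gene, had 2.35, 2.94 and 2.98 kb in PC3 day 10 lists, against 3.99, 4.30 and 4.33 kb in control lists. LKAAEAR1, in the outermost window, had 3.86, 2.72 and 4.22 kb, against 6.84, 5.36 and 6.24 kb, the largest lower value of the arm in PC3 at day 10 among genes whose lists did not overlap. Of the 4 imprinted genes tested, GNAS, which encodes the stimulatory G protein subunit, was lower in PC3 at day 10 (4.58 ± 0.169 kb against 5.83 ± 0.828 kb), and not with the 2 other scalings. None was called in MDA-MB-231.

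Between the 2 times of survival, 9 genes of the arm were higher and 8 lower at day 10 than at day 1 in MDA-MB-231 (2.14% and 3.24% of all genes), and 26 in all with the replicate number as a block. SLC13A3, a dicarboxylate transporter gene, rose by 0.60 (SE 0.10, limma adjusted p = 0.00254), with 8.20 ± 0.858 kb at day 10 against 5.24 ± 0.476 kb at day 1. OCSTAMP, a gene of osteoclast fusion, rose by 0.98 (limma adjusted p = 0.00043). SPINT3 was higher by 1.22, given without a p because it was at 0 in control lists. In PC3, 10 were higher and 8 lower (2.18% and 5.47%), with PTPRT, BPIFB2 and SUN5 highest by log2 difference. RALY, an RNA-binding protein gene, had 8.75 ± 1.14 kb at day 10, against 5.55 ± 0.479 kb at day 1, and MYBL2, a cell cycle transcription factor gene, 4.04 ± 0.111 kb, against 5.69 ± 1.09 kb. Without MDA-MB-231 day 1 replicates 2 and 3 and day 10 replicate 1, each in turn, the counts for MDA-MB-231 were 6, 8 and 10, and without PC3 day 1 replicates 2 and 3 those for PC3 were 4 and 10.

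Between the lines at day 1, PC3 was lower than MDA-MB-231 at 186 genes of the arm and higher at 32 (42.5% and 20.4% of all genes). The counts moved with the scaling, to 124 lower and 62 higher under median-of-ratios scaling, 119 and 39 without scaling, and 130 and 38 on the 50000 peaks of highest area. Besides CDH4, the lower genes included GATA5, a zinc finger factor gene (1.19 ± 0.376 kb in PC3 and 8.62 ± 1.34 kb in MDA-MB-231), MYL9, which encodes a myosin light chain (1.13 ± 0.0510 kb and 5.89 ± 0.119 kb), and HRH3, a histamine receptor gene (3.88 ± 0.741 kb and 16.0 ± 2.14 kb). The higher ones were led by PI3, at 4.90 ± 0.375 kb in PC3 and 1.21 ± 0.477 kb in MDA-MB-231, a log2 difference of 1.70 (SE 0.23, limma adjusted p = 5.83e-06). For each of these genes the lists of the lines did not overlap.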

How the data were processed

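ATAC-seq peak lists were analysed for 18 biological replicates in 6 groups. Per the submitters' processing notes, the tools were Genrich 0.6.2, SAMtools 1.6, Picard, Bowtie2 2.3.5.1, FastQC 0.12.1 and R 4.4.1, with hg38 and GRCh38. The sources used here do not give how experimental replicates were joined into 1 list. Each list has 10 columns without a header. Column 7 is a score deposited by the authors, taken from its values as peak area (lowest value 200), and served only for ranking the peaks of 1 list. Column 8 is the deposited -log10 p of each peak (lowest value 2.52).

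Covered length per list was summed over the arm, over windows of 2 Mb and over 19970 protein-coding genes of RefSeq (GRCh38.p14), 357 of them on 20q. Lengths were scaled to the mean list total. Windows of 5 kb or more, and genes of 500 bp or more, in 3 lists or more entered the fit on the log2 scale. It was made in R 4.3.3 by limma 3.58.1 over the 6 groups together, with a variance trend, 12 residual degrees of freedom, pseudocounts of 1 kb and 500 bp, and Benjamini-Hochberg adjustment over all windows or genes at 0.05. The fit was tested on simulated data. Shares were tested with the two-sided exact permutation test over its 20 relabellings. No p is given within PC3, where each contrast chose the arm or shares lists with the one that did. Nothing in the labels says that replicates came from separate cultures beyond calling them biological, so p-values measure the spread between these lists.

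The members and the 9 gene lists (104 entries) were chosen with earlier results of these data known. Genes were named by rule: per contrast, the members with the lowest p (up to 4 a list), up to 6 of the largest rises and 6 of the largest falls among called genes with non-overlapping groups, and genes at up to 5 of the widest gained and lost regions at day 10. The text gives a selection.

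Replicate numbers are shared between groups. Same-numbered lists deviated together with correlations of 0.389, 0.235 and 0.193 in MDA-MB-231 day 1 and control, 0.419, 0.310 and 0.197 in MDA-MB-231 day 10 and day 1, and 0.345, 0.132 and 0.216 in PC3 day 10 and day 1. The numbers were taken to pair lists in those comparisons. The limma and exact permutation p-values given above do not use this pairing, which entered only as the replicate block. The labels do not state this pairing, which rests on the correlations. Alternatives were other peak cuts, scalings, pseudocounts, filters, window grids and gene windows, the replicate block, and leaving out each list.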

Additional observations from a re-analysis of the deposited data

Results flagged for a closer look

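The window from 36.4 to 38.4 Mb, with TGM2, moved in opposite ways in the lines at day 10. Its share of the covered length differed from control by 0.01546 percentage points in PC3, where every day 10 list (0.161%, 0.160% and 0.184%) lay above every control list (0.157%, 0.148% and 0.153%). In MDA-MB-231 it differed by -0.01917 percentage points, with every day 10 list (0.177%, 0.181% and 0.167%) below every control list (0.186%, 0.201% and 0.196%). The difference between the lines was not tested.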

How the results depend on the processing

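The number of peaks and their area are the authors', and depth is unknown. Over all results and settings, 400 values were labelled as unchanged, 67 moved and 25 changed sign, and the cause was not tested. The 25 that changed sign were all shares. Counts of windows and genes took higher and lower calls together. An unchanged count therefore does not show that the split between higher and lower was kept. With the 50000 peaks of highest area, the difference in the share of 20q of MDA-MB-231 was 0.177 for day 1, 0.123 for day 10 and -0.0546 between the days, and that of PC3 was 0.338 for day 1. With the upper 50% by area it was 0.0831, 0.0510 and -0.0321 in MDA-MB-231. By number of peaks it was 0.00359 in MDA-MB-231 at day 10. The gene-end share in PC3 differed by 0.0250 at day 1 and -0.0171 at day 10 on the 50000 peaks, by -0.00635 at day 10 and 0.00288 between the days by number of peaks, and by 0.142, 0.296 and 0.153 (day 1, day 10, between the days) of gene-end length. For other peaks, the share of other length of MDA-MB-231 differed by -0.0687 for day 1 and -0.000631 for day 10. Between the days it was -0.0494 on the 50000 peaks and -0.0257 on the upper 50%. In PC3 at day 1 it was 0.313 on the 50000 peaks and 0.122 by number.

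Windows called on the 50000 peaks numbered 2 for MDA-MB-231 day 1, 4 for its day 10, 5 for PC3 day 1 and 14 for its day 10. With 1 Mb windows there were 13 in MDA-MB-231 at day 1, 1 between its days and 7 in PC3 at day 1, and with a grid moved by 1 Mb there were 2 between the MDA-MB-231 days and 2 in PC3 at day 1. Without scaling MDA-MB-231 had 3 for day 10, PC3 had 16 for day 1 and 15 for day 10, and the lines differed in 7, and with median-of-ratios scaling 2 in PC3 at day 1. Genes called on the 50000 peaks numbered 39 and 37 for MDA-MB-231 (day 1, day 10), 29 in PC3 at day 1 and 30 between the PC3 days, where median-of-ratios scaling gave 31 and no scaling 10. MDA-MB-231 at day 10 had 62 without scaling. Regions gained on the 50000 peaks numbered 110 and 125 for MDA-MB-231 (day 1, day 10) and 75 and 180 for PC3, with 12 lost in PC3 at day 1. With 50% of the region covered, 60 were lost in MDA-MB-231 at day 10, and 10 and 40 in PC3.

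With the replicate number as a block, the pairing gave 1 window and 26 genes between the MDA-MB-231 days and 5 windows between the PC3 days. In PC3 at day 1, where the numbers were not taken to pair lists, the block gave 4 windows. It moved no other count past 1.5 times.

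Leaving out each list in turn gave these ranges. The share difference of MDA-MB-231 ran from -0.105 to 0.0138 at day 1 (above 0 without control replicate 3, or at 0.00716 without day 1 replicate 1), from -0.0794 to 0.0680 at day 10 (0.0395 without control replicate 3 and 0.0680 without day 10 replicate 3) and from -0.0277 to 0.114 between the days (below 0 without day 1 replicate 1 or day 10 replicates 1 or 2). In PC3 it spanned 0.158 to 0.238, 0.216 to 0.414 and 0.0282 to 0.227, and between the lines from -0.657 to -0.576. Gene-end differences in the same order spanned -0.183 to -0.136, -0.197 to -0.147 and -0.0325 to 0.0154 for MDA-MB-231 (0.00467 without day 1 replicate 2 and 0.0154 without day 10 replicate 3), and -0.0669 to -0.00712, -0.105 to -0.0563 and -0.0675 to -0.00651 for PC3. Those of other peaks spanned 0.0777 to 0.154, 0.115 to 0.217 and 0.00189 to 0.0988 for MDA-MB-231 and 0.195 to 0.2595, 0.321 to 0.471 and 0.0957 to 0.246 for PC3. Windows called were 3 to 5, 4 to 6 (4 without control replicate 3 or day 10 replicate 3) and 0 in MDA-MB-231, 0 to 1 (0 without control replicates 1 or 2 or day 1 replicates 2 or 3), 7 to 13 and 2 to 4 in PC3, and 14 to 15 between the lines. Genes called were 69 to 82, 77 to 102 and 6 to 14 in MDA-MB-231, 29 to 58 (29 without day 1 replicate 3), 114 to 135 and 4 to 19 in PC3, and 194 to 212 between the lines. In MDA-MB-231, regions gained were 300 to 505 at day 1 (505 without day 1 replicate 2) and 338 to 472 at day 10, and regions lost 36 to 57 (57 without control replicate 1) and 36 to 54 (54 without control replicate 1). In PC3, gained regions were 214 to 391 (391 without day 1 replicate 2) and 587 to 698, and lost ones 8 to 16 (16 without day 1 replicate 1) and 22 to 43 (43 without day 10 replicate 1).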
